A study of Drosophila melanogaster with 2 samples.

Results

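The genes described here encode the subunits of the Drosophila proteasome, and the question was which of them had the tagged danr protein at their start sites in embryos. Members were the protein-coding genes of the BDGP6 annotation whose symbol begins with Prosalpha, Prosbeta, Rpn or Rpt followed by a digit, which gave 48 of 13968 protein-coding genes on the 7 chromosomes examined. They were 7 genes of the core's alpha ring, 7 of its beta ring, 10 of the regulatory particle's base, 8 of its lid, and 16 copies whose symbols end in T or R, with or without a digit (11 of core and 5 of regulatory subunits). The copies are called testis copies below, from their symbols only. The choice used names and no measured value, and was made with earlier results of these data known.

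The data came from chromatin immunoprecipitation followed by sequencing (ChIP-seq) of whole Drosophila melanogaster embryos aged 0 to 24 h, from a danr-GFP strain carrying a danr-eGFP fusion transgene. A GFP antibody was used, per the sample descriptions, although another label field names danr as the antibody. The series had 1 group with 2 biological replicates of 1 technical replicate each, and no untagged, untreated or second-stage group. Control libraries were named in the labels and were not analysed here. The labels do not give the regulatory sequence that drives the fusion or say whether the untagged gene remained. Chromatin was sonicated, with a stated size range of 200 to 800. In whole embryos, binding in few cells and weak binding in many cells cannot be told apart. The depth of the libraries is unknown from the peak lists.

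The proteasome is the protease that degrades ubiquitin-tagged proteins in the cytoplasm and nucleus. Its barrel-shaped core is built of outer alpha rings, which gate the entrance, and inner beta rings, some of whose subunits carry the proteolytic sites. The regulatory particle caps the core: its base holds the Rpt ATPases that unfold substrates, and its lid holds the enzyme that removes ubiquitin. The danr protein, distal antenna-related, is a nuclear protein of the pipsqueak-domain family with known roles in eye and antenna development.

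Of the 48 genes, 3 had a peak summit within 1000 bp of a start site in the thresholded list of the whole series, which rests on both replicates: Prosbeta2, Rpn3 and Rpn5. The sequence around each of these 3 summits is shown because each lies near the paired starts of a proteasome gene and a neighbour on the opposite strand. All 3 lines are the + strand of dm6, 5′ to 3′, in lower case, and capitals mark TATCGATA, the palindromic site of the core promoter factor DREF, or TATAAA, the TATA box, on either strand. The Prosbeta2 line is chr3L:14999656-14999955, in which base 11 is the start of mRpL39, base 95 is the summit and base 296 is the start of Prosbeta2. The Rpn3 line is chr2L:19051589-19051819, in which base 24 is the start of l(2)37Bb, base 171 is the summit and base 202 is the start of Rpn3. The Rpn5 line is chr3R:5789115-5789315, with the summit at base 101.
Prosbeta2: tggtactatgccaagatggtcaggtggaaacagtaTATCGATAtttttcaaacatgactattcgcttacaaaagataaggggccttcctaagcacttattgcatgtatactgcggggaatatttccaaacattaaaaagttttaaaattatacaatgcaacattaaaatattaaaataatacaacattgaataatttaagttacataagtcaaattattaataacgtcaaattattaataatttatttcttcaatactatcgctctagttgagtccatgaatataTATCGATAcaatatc
Rpn3: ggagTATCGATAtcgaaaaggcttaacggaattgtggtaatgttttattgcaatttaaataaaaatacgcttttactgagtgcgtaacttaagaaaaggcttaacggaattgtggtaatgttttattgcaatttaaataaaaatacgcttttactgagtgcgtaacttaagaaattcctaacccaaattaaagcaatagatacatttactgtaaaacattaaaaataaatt
Rpn5: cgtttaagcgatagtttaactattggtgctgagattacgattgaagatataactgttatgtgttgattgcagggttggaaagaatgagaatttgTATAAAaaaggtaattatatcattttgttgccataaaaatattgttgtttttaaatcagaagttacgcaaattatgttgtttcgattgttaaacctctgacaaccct

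In the printed lines, TATCGATA stood at bases 36 to 43 and 286 to 293 at Prosbeta2 and at bases 5 to 12 at Rpn3, and TATAAA at bases 95 to 100 at Rpn5, directly beside its summit. The peak at Rpn3 also held an internal repeat that can be read in its line. A stretch of 82 bp at positions 19051603 to 19051684 recurred without a mismatch at 19051681 to 19051762, a shift of 78 bp. The second copy held the summit of the series list. The summits of replicates 1 and 2 in their own lists, both at 19051803, lay outside both copies. Of the 2778 peaks on the 7 chromosomes, 1 (0.036%) had an internal repeat at least this long, and it was the Rpn3 peak itself. The repeat was searched for after it had been seen in the sequence, and whether it affected the placing of reads was not tested.

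The 3 genes with a peak made 6.25% of the 48 (exact 95% binomial interval 1.31 to 17.2%), beside a background of 13.4% of all protein-coding genes (1874 of 13968) in the same list. The interval covers counting error only and holds the background share. Peaks were found at 1 of the 14 somatic core genes (7.14%) and at 2 of the 18 somatic regulatory genes (11.1%), and the 2 shares differ by less than their counting error. By ring and subcomplex, the counts were 0 of 7 in the alpha ring, 1 of 7 in the beta ring, 0 of 10 in the base and 2 of 8 in the lid. None of the 16 testis copies had a peak, and a count of 0 of 16 allows a share of up to 20.6% by the same exact interval.

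In the conservative list, whose rows all come from the second ranked list of both replicates, 2 of the 48 genes had a peak (4.17%), Rpn3 and Rpn5, beside 11.0% of all genes. In the list of replicate 1 alone, 1 gene had a peak (2.08%), Rpn3, beside 8.81%. In the list of replicate 2 alone, the same 3 genes as in the series list had a peak, beside 9.09%. Rpn3 was therefore the 1 member present in all 4 thresholded lists.

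Prosbeta2 (FBgn0023174) encodes the beta-ring subunit with trypsin-like activity. Its peak, 344 bp long at chr3L:14999578-14999921, had a signal of 96.3, the authors' enrichment value, and ranked 1042 of 2799 peaks in the series list, whose median signal was 80.3. The summit lay between genes, 201 bp upstream of Prosbeta2 and 84 bp upstream of mRpL39 (FBgn0036462), a mitochondrial ribosomal protein gene on the opposite strand that starts 285 bp away. The nearest start to the summit was thus that of mRpL39.

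At Prosbeta2 the ranked peak of replicate 1 had a signal of 20.1 and that of replicate 2 a signal of 71.1. Replicate 2 was 3.54 times as high as replicate 1, a ratio above that of 99.5% of the series peaks found in both replicates. The score, a transform of the irreproducible discovery rate (IDR) with a maximum of 1000 and a threshold of 830 for an IDR of 0.01, was 48 in replicate 1 and 1000 in replicate 2. In the second ranked list of both replicates it was 559, under the threshold, and the summits in the replicates were 23 bp apart. The peak at Prosbeta2, the 1 core gene with a peak, therefore rests on replicate 2.

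Rpn3 (FBgn0261396) encodes a scaffold subunit of the lid. Its peak at chr2L:19051587-19051930 had a signal of 97.0, ranked 1028 of 2799, and had its summit 31 bp upstream of Rpn3, the nearest start. The gene l(2)37Bb (FBgn0002021), on the opposite strand, starts 178 bp from Rpn3, with the summit 147 bp upstream of it. The signal was 38.1 in replicate 1 and 63.5 in replicate 2, a ratio of 1.67. Both replicates passed the threshold, with scores of 966 and 1000, and both had the summit at the same base, 13 bp inside Rpn3 and 44 bp from the summit in the pooled list.

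Rpn5 (FBgn0028690), another lid scaffold subunit, had its peak at chr3R:5789043-5789386 with a signal of 91.6, rank 1123 of 2799. The summit was 278 bp upstream of Rpn5, in an intron of Hat1 (FBgn0037376), a histone acetyltransferase gene on the opposite strand. The outermost start of Hat1 is 109 bp from Rpn5, and the summit was 141 bp upstream of its inner start, the nearest start to the summit. The ranked peaks over this site had signals of 32.5 in replicate 1 and 62.98 in replicate 2, a ratio of 1.94, with scores of 560 and 1000 and summits 82 bp apart. The conservative list held a further row, with its summit at -78 bp (negative distances are upstream of the start), a signal of 30.4 and a score of 1000, where the pooled ranking gave the same peak a score of 37.

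All 3 genes had the higher signal in replicate 2. Of the 2627 series peaks found in both replicates, 45.0% were higher in replicate 2, with a median ratio of 0.944 (quartiles 0.707 to 1.30) and 5th and 95th percentiles of 0.41 and 2.06. The ratio at Prosbeta2 thus lay outside the middle 90% of peaks, and those at Rpn3 and Rpn5 lay inside it. With 1 library per replicate, no test of this difference can be made.

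**Figure D1:**
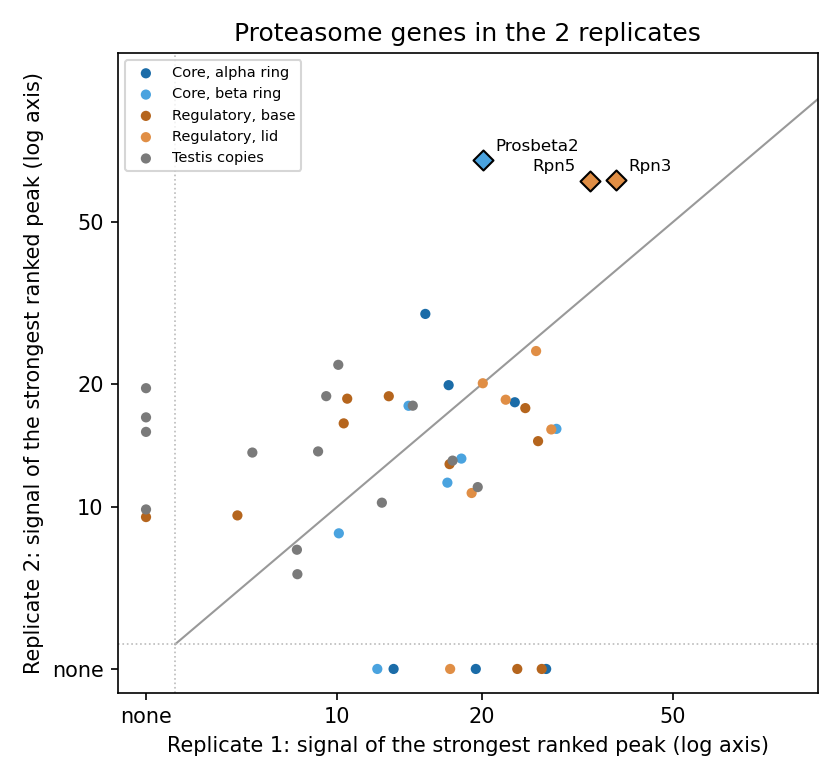
Signal of the strongest ranked peak within 1000 bp of a start site of each proteasome gene in replicate 1 (horizontal, log axis) and replicate 2 (vertical, log axis); the line marks equal values, points beyond the dotted lines had no ranked peak in that replicate, and diamonds are the 3 genes with a peak in the series list. The diamonds lie above the line at 62.98 to 71.1 in replicate 2, while every other gene with a peak lies at or below 29.8 there.

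The other 45 genes were followed in the ranked lists, which hold weak peaks down to a signal of 2.0 and cover most promoters. A ranked peak in the pooled list lay within 1000 bp of a start at 42 of the 48 genes, beside 91.5% of all protein-coding genes. In the ranked list of replicate 1 this held for 40 genes, beside 79.7%, and in that of replicate 2 for 38 genes, beside 77.5%. These shares are near the background and are no result about the members. Over the 42 genes the strongest pooled ranked peak had a median signal of 28.0, beside 26.9 (upper quartile 38.0) over all genes with such a peak.

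The lid had the highest class median. Its pooled signals had a median of 42.0, with a range of 18.1 to 97.0, and 4 of 8 lay above that upper quartile. The medians were 29.7 for the alpha ring (19.5 to 41.6), 30.6 for the beta ring (14.2 to 96.3) and 27.4 for the base (19.8 to 45.6). In the replicates apart, the lid median was 24.2 in replicate 1, beside 17.1 over all genes with a ranked peak there. In replicate 2 it was 20.1, beside 15.4, again over genes with a ranked peak. In replicate 2 the alpha ring, with a ranked peak at 3 of its 7 genes, had a median of 19.9, close to that of the lid. The ranges of the classes overlap, and no test was made between them because the lists give 1 value per gene in 1 group.

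**Figure D2:**
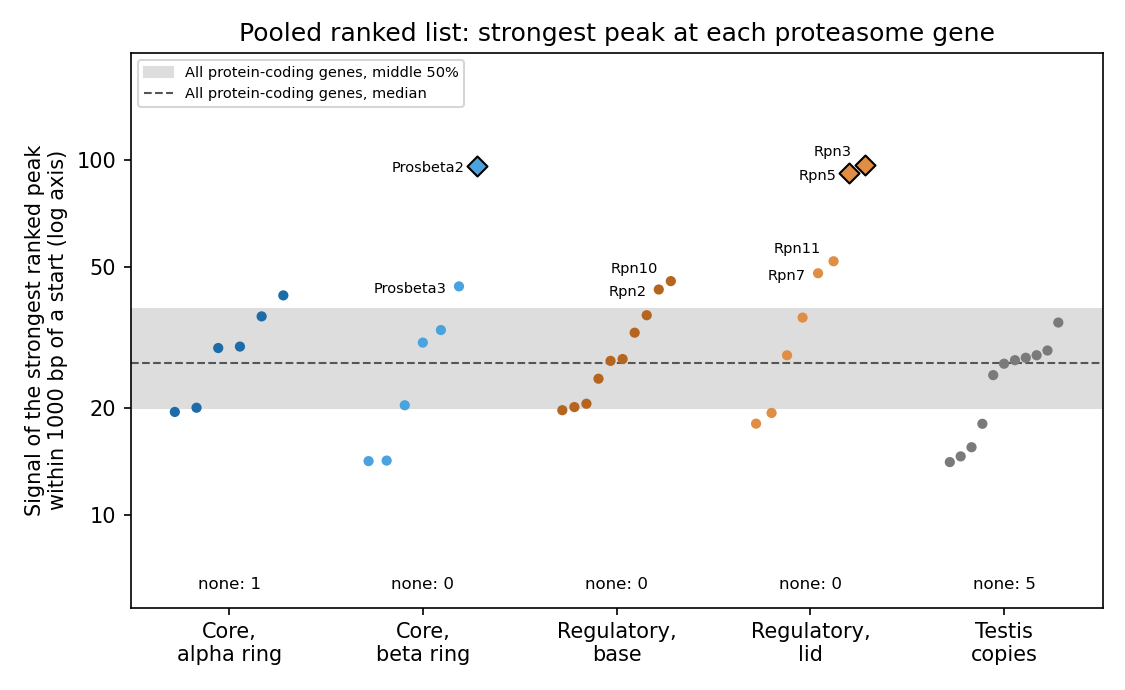
Signal of the strongest peak of the pooled ranked list within 1000 bp of a start site (log axis) for each proteasome gene, by class. The grey band and dashed line are the quartiles and median of all protein-coding genes with such a ranked peak. Diamonds are the 3 genes with a peak in the series list, and "none" counts genes without a ranked peak. The testis copies lie between 14.1 and 34.9, none above the band, while 4 of 8 lid genes lie above it.

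After the 3 genes, the highest scores in the pooled ranking belonged to Prosbeta3 (744), Rpn11 (673) and Rpn7 (633), all under the threshold of 830. No further member exceeded a score of 333, that of Prosbeta2R2. Rpn11 is the deubiquitinase of the lid. Its ranked peak at -138 bp had a pooled signal of 51.9, with 26.0 in replicate 1 and 24.1 in replicate 2. Rpn7, a lid scaffold subunit, had a ranked peak at +287 bp with a pooled signal of 48.0 and signals of 27.9 and 15.5 in replicates 1 and 2. Prosbeta3, a beta-ring subunit without a proteolytic site, had a ranked peak at +635 bp with a pooled signal of 44.1 and signals of 28.6 and 15.5. At these 3 genes the strongest peaks of the replicates overlapped, and the signal was higher in replicate 1, the reverse of the order at the 3 genes past the threshold. The ratio of replicate 2 to replicate 1 was 0.929 at Rpn11, 0.555 at Rpn7 and 0.543 at Prosbeta3.

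Of the other lid genes, Rpn8, the inactive partner of Rpn11, had a pooled signal of 36.0 with 22.4 and 18.3 in replicates 1 and 2. The peaks of the 2 replicates did not overlap there. In the base, the highest were Rpn10, a ubiquitin receptor, with 45.6, Rpn2, a large scaffold subunit, with 43.2, and the ATPase Rpt6 with 36.6. Rpn10 had a signal of 23.7 in replicate 1 and no ranked peak in replicate 2. Rpn2 had 26.2 and 14.5, and Rpt6 had 24.6 and 17.5. The 10 base genes thus had a ranked peak in the pooled list but none past the threshold.

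In the alpha ring, the highest pooled signals were those of Prosalpha3 at 41.6, Prosalpha5 at 36.3 and Prosalpha7 at 29.9. Prosalpha3 had 15.3 in replicate 1 and 29.8 in replicate 2, and Prosalpha5 had 23.4 and 18.1. At both genes the strongest peaks of the replicates did not overlap, so these values are of separate peaks. Prosalpha7 had 27.2 in replicate 1 and no ranked peak in replicate 2. A ranked peak in replicate 2 was found at 3 of the 7 alpha-ring genes, beside 77.5% of all genes, and one in replicate 1 at 6 of 7, beside 79.7%. In the beta ring, Prosbeta4 had a pooled signal of 33.2 with 18.1 and 13.1 in the replicates. Prosbeta5, with chymotrypsin-like activity, had 30.6, with separate peaks of 14.1 at -120 bp in replicate 1 and 17.7 at +639 bp in replicate 2.

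Across replicates, 33 of the 48 genes (68.8%) had a ranked peak in both, beside 64.8% of all genes. The strongest peaks overlapped between replicates at 14 of these 33 genes (42.4%), beside 53.6% over all genes with a peak in both. The signal was higher in replicate 2 at 16 genes and in replicate 1 at 17. At Rpn5 the strongest peak in replicate 1 was a separate one at +747 bp with a signal of 33.6, which is the value plotted for it by replicate. At the rest of the 33, the strongest peaks of the replicates lay apart, and 7 genes had a ranked peak in replicate 1 alone and 5 in replicate 2 alone.

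Of the testis copies, 11 of 16 (68.8%) had a ranked peak in the pooled list, beside 91.5% of all genes. In the second ranked list of both replicates 14 of 16 (87.5%) had one, beside 26 of 32 somatic members (81.25%). The share over all genes was not computed for that list. In replicate 1 the count was 10 of 16 (62.5%), beside 79.7%, and in replicate 2 it was 14 of 16 (87.5%), beside 77.5%. The copies were thus below the background share in replicate 1 and above it in replicate 2, within counting error in each. The exact binomial intervals, 35.4 to 84.8% in replicate 1 and 61.7 to 98.4% in replicate 2, held the background shares. That of the pooled list, 41.3 to 89.0%, did not hold 91.5%. These intervals cover counting error only. Over the 11 copies with a pooled ranked peak, the signals ranged from 14.1 to 34.9 with a median of 26.7. Of all copies, 0 of 16 lay above the upper quartile of all genes. The median was 9.77 over the 10 copies with a ranked peak in replicate 1 and 13.6 over the 14 in replicate 2. Over all genes with such a peak it was 17.1 and 15.4.

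The 3 copies of highest pooled signal were Prosbeta2R2 with 34.9, the ATPase copy Rpt3R with 29.1 and Prosalpha4T1 with 28.2. In replicates 1 and 2, Prosbeta2R2 had 14.4 and 17.7, Rpt3R had 19.6 and 11.2, and Prosalpha4T1 had 9.13 and 13.7. The other copies with a ranked peak in both replicates were Prosalpha3T (8.26 and 6.83), Prosalpha4T2 (6.66 and 13.6), Prosbeta2R1 (12.4 and 10.2), Prosbeta4R1 (8.25 and 7.85), Prosbeta5R2 (10.1 and 22.3), Rpt4R (17.4 and 13.0) and Rpt6R (9.49 and 18.7). Of these 10 copies, 5 were higher in replicate 1 and 5 in replicate 2. The strongest peaks of the replicates overlapped at 5 of the 10: Prosalpha3T, Prosalpha4T1, Prosbeta2R1, Prosbeta2R2 and Prosbeta4R1. At the others the 2 values are of separate peaks.

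Each copy was set beside the somatic gene it is named after. In 11 pairs both had a pooled ranked peak, and the copy was lower in 8 and higher in 3. These pairs are not all separate comparisons, since the copies of Prosalpha4, of Prosbeta2, of Prosbeta4 and of Prosbeta5 share a counterpart. The other 5 copies had no pooled ranked peak, and their counterparts had one except at Prosalpha1R. Prosbeta2 had 96.3, while its copies Prosbeta2R1 and Prosbeta2R2 had 18.1 and 34.9. The 3 copies above their counterpart were Prosalpha4T1 (28.2 against 20.1 for Prosalpha4), Rpt3R (29.1 against 20.6 for Rpt3) and Rpt4R (27.3 against 24.2 for Rpt4). These orders did not all hold by replicate. Prosalpha4T1 was lower in replicate 1 (9.13 against 13.1), and Rpt4R in replicate 2 (13.0 against 16.0). Of the lower copies, Prosbeta5R2 (22.3 against 17.7), Rpt6R (18.7 against 17.5) and Prosbeta4R2 (16.6 against 13.1) were higher in replicate 2. No other pair changed order where both genes had a ranked peak in that replicate. The coding sequences of the pairs were 61.9 to 78.2% identical, with 1 exception.

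The exception was Prosalpha1R, whose coding sequence was 100% identical to that of Prosalpha1. These neighbours on chromosome 2R, at 7827303 to 7828678 and 7830413 to 7831771, were the 2 members without a ranked peak in any of the 4 ranked lists. Rpn13R, a further testis copy, had one in the second ranked list alone, with a signal of 10.3. Over all protein-coding genes, 583 (4.17%) had none in any ranked list, the same share as 2 of 48. The genes are part of a direct repeat with a shift of 3110 bp, over which 3112 bp matched without a mismatch. No summit of the pooled ranking fell in a stretch of 6387 bp across them, where the median gap between summits on the chromosome was 659 bp and 1.04% of gaps were at least as long. In the ranked lists of the replicates, 2.79% and 1.82% of gaps were at least as long as the one there. Reads that lie within such copies cannot be told apart by sequence, and whether the peak lists leave out the repeat for that reason was not tested.

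The distance to the nearest summit of the series list had a median of 11282 bp over the 48 genes, beside 13202 bp over all genes. It was 5045 bp for the somatic core, 7711 bp for the somatic regulatory genes and 33408 bp for the testis copies. A summit lay within 5000 bp of 14 of the 48 genes (29.2%), beside 28.2% of all genes. Only 1 of the 16 testis copies, Prosbeta2R2, was among these, at 3997 bp. Just outside the 1000 bp limit, Rpn11 had a peak of signal 78.8 at 1549 bp, and Prosbeta6, a beta-ring subunit, one of signal 87.1 at 1988 bp.

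**Figure D3:**
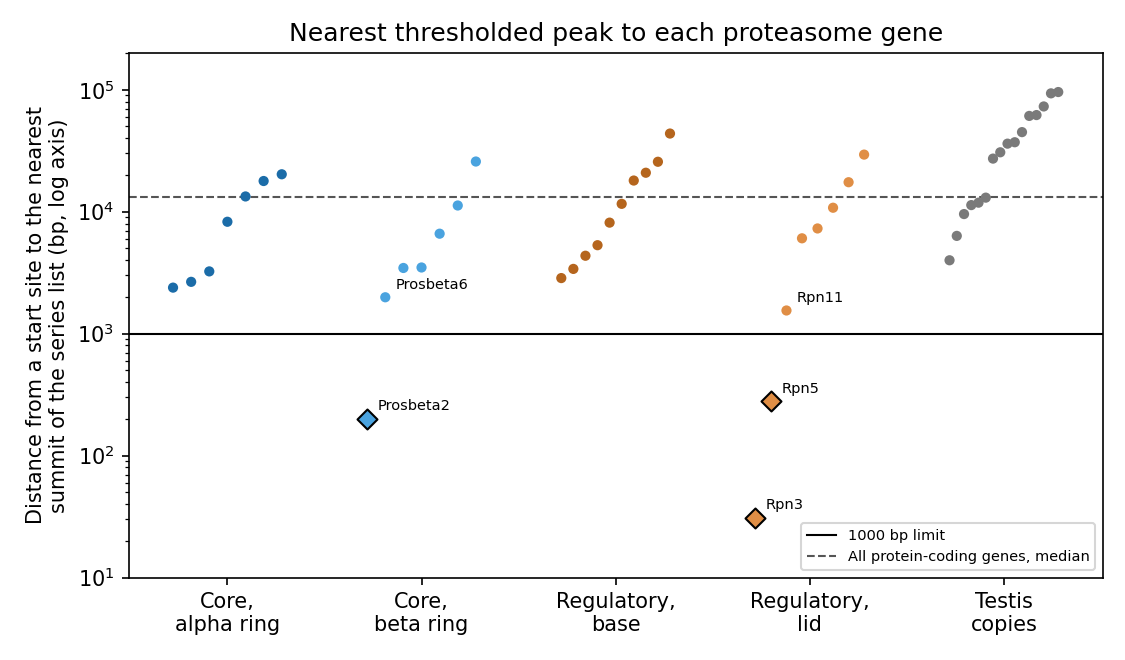
Distance from a start site to the nearest summit of the thresholded series list (bp, log axis) for each proteasome gene, by class; the solid line is the 1000 bp limit, the dashed line the median of all protein-coding genes, and diamonds the 3 genes with a peak. The testis copies start at 3997 bp and reach 95726 bp, while Rpn3 lies at 31 bp.

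All 3 genes with a peak start beside a gene on the opposite strand. A protein-coding partner starting within 1000 bp on the opposite strand was present at 22 of the 48 genes (45.8%), beside 35.2% of all genes. The series list had a peak at 3 of these 22 (13.6%) and at 0 of the 26 without one. Over all genes the shares were 22.4% with a divergent partner and 8.55% without. Among the classes, 10 of 14 somatic core genes had a divergent partner, 9 of 18 somatic regulatory genes and 3 of 16 testis copies (18.8%). Since a summit counted for both genes of such a pair, these peaks cannot be assigned to a single gene.

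The promoters of the members, from 250 bp before to 50 bp after the outermost start, were searched on both strands for 6 motifs, each counted on its own where matches overlap. The DREF site TATCGATA was in 12 of the 48 promoters, beside 9.36% of all promoters. All 12 were somatic genes, 12 of 32 (37.5%), spread over the alpha ring (3), beta ring (3), base (2) and lid (4), and 0 of 16 testis copies held it. Of the 12, Prosbeta2 and Rpn3 had a peak (16.7%), beside 16.8% of all genes with the motif. GAGAG, the GAGA factor motif, was in 3 of 32 somatic promoters (9.38%) and 6 of 16 testis promoters (37.5%), beside 29.7%.

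TATAAA was in 37.5% of member promoters, beside 45.8% of all. The core of the antioxidant response element, TGACNNNGC, the site of Cnc with Maf-S, was in 12.5% beside 8.62%, and CACGTG, the E-box, in 0 of 48 beside 4.20%. The motif of M1BP, GGTCACAC, was in 5 of 32 somatic promoters (15.6%) and 0 of 16 testis promoters, beside 7.69%. Promoters of members held 65.1% ± 6.83 A+T (SD over 48 genes), beside 60.9% ± 7.81 over all genes. A match is a description of the letters in the window.

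**Figure D4:**
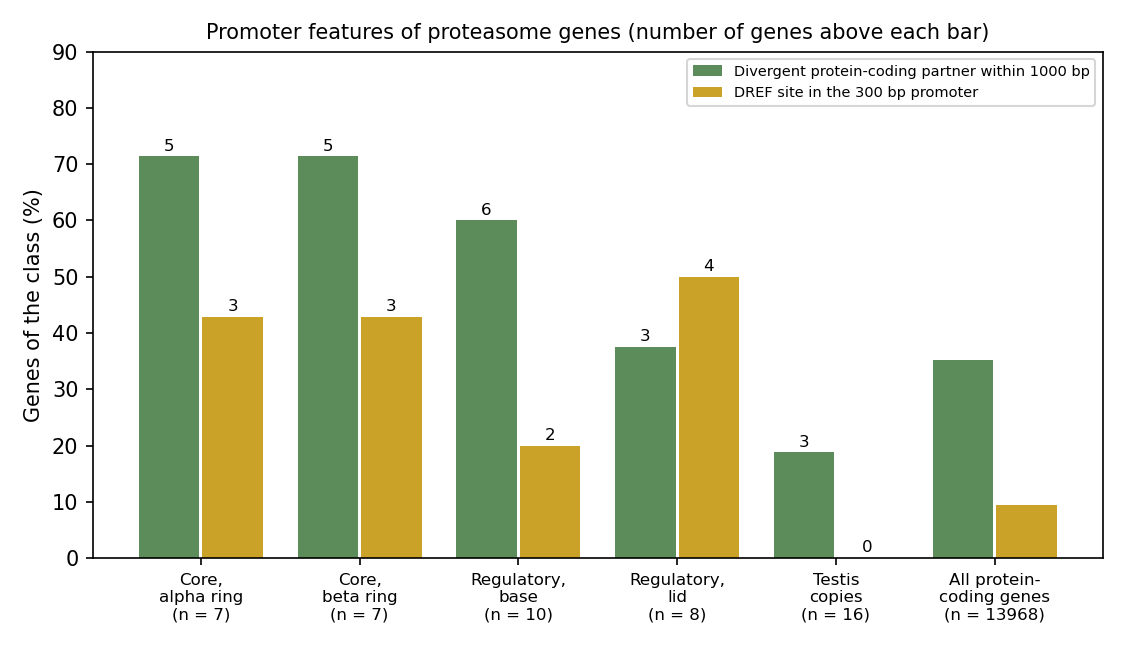
Share of genes (%) in each class that have a divergent protein-coding partner within 1000 bp (green) or a DREF site in the 300 bp promoter (yellow), with the number of genes above each bar; the last pair is all 13968 protein-coding genes. The DREF site is in 4 of 8 lid genes and in 0 of 16 testis copies, and a divergent partner is at 5 of 7 genes in each core ring.

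Within the peaks, the DREF site was in 2 of the 3, those at Prosbeta2 and Rpn3, beside 3.38% of all 2778 peaks. The 2778 peaks were not limited to start sites, and the site was in 37.5% of the promoters of somatic members. The DREF site stood 59 bp from the summit at Prosbeta2, and 166 bp and 107 bp from it on either side at Rpn3. In windows of 50 bp to each side of the summit it was in 0 of 3, beside 1.01% of all windows. TATAAA was in the summit window of 1 of the 3, that of Rpn5, beside 22.6%. With 3 peaks, these counts describe single loci.

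Genes that act with the proteasome were taken from a list of 22 genes for its assembly, regulation, ubiquitin supply and substrate delivery, all matched in the annotation (2 by an older symbol). A series peak was found at 4 of them (18.2%), beside 13.4%. Pomp, the maturation chaperone of the core, had a signal of 127 in the series list, 63.5 in replicate 1 and no ranked peak in replicate 2. The transcription factor gene cnc, whose product activates proteasome genes in flies, had 69.7, with 49.9 and 17.8 in replicates 1 and 2. RpS27A, a ubiquitin and ribosomal protein fusion gene, had 71.0, with 43.9 and 26.1. Ubqn, a ubiquitin receptor that shuttles substrates, had 46.9, with 34.0 and 14.6. At these 4 genes the signal was lower, or there was no ranked peak, in replicate 2, unlike at Prosbeta2, Rpn3 and Rpn5. The replicate values here are of each replicate's strongest ranked peak within 1000 bp of a start. Whether those peaks overlapped between replicates was not examined for these genes. By that measure Rpn5 had 33.6 and 62.98, and the values at Prosbeta2 and Rpn3 were those given above. The list of replicate 1 alone had a peak at 3 of the 22, beside 8.81%, and that of replicate 2 alone at 0 of the 22, beside 9.09%. Ubi-p63E, a polyubiquitin gene without a thresholded peak, had the other order, with a pooled ranked signal of 92.5 and signals of 26.2 and 51.8 in replicates 1 and 2.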

How the data were processed

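The 8 peak lists were deposited in dm6 coordinates, 4 thresholded and 4 ranked, per the file headers and labels. For the aligner and the peak caller, names and versions were not given in the sources used here. Of the ranked lists of both replicates, the one called pooled holds all 2799 rows of the thresholded series list, and the second holds all 2182 rows of the conservative list. Each deposited peak carries a score, a transform of its IDR, and a signal, the authors' enrichment value, which were used only to describe and rank peaks within a list or to set replicates side by side. Whether the deposited signal draws on the control libraries was not tested. Replicates are biological per the labels.

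A gene had a peak where a summit lay within 1000 bp of the start of any of its transcripts in Ensembl release 115 (BDGP6), whose coordinates equal dm6. The strongest such peak gave the gene's signal. Sequences were read from the Release 6 genome of RefSeq. The assignment was tested on simulated peaks planted at known starts. Python 3.11.15, NumPy 2.4.6, SciPy 1.17.1 (exact binomial intervals), Biopython 1.88 and matplotlib 3.10.9 were used. No test was made between conditions, since there is 1 group.

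The members, classes, motifs and the pathway list were chosen with earlier results of these data known. The genes named were those with a peak in any thresholded list and the genes sharing it, the 3 per class of highest ranked signal among the rest, and testis copies with a ranked peak in both replicates. Prosalpha1, Prosalpha1R, Rpn13R, Prosbeta4R2, Prosalpha4, Rpt3, Rpt4, Prosbeta6 and the pathway genes were named after their values were seen.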

Additional observations from a re-analysis of the deposited data

How the results depend on the processing

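No paired analysis was possible because there is 1 group, so no groups share replicate numbers. Gene counts were recomputed under 10 alternatives, and the testis copies stayed at 0 in each. With each replicate's own list, the number of proteasome genes ranged from 1 to 3, the core from 0 to 1, the regulatory particle from 1 to 2, all protein-coding genes from 1231 to 1270 (1874 as reported), and the median signal at bound members from 38.1 to 63.5 (96.3 as reported). The 38.1 is Rpn3 alone, and over the same 3 genes the ranked peaks of replicate 1 had a median of 32.5. The conservative list gave 0 core genes. A limit of 2000 bp gave 5 proteasome genes (10.4%, beside 17.1% of all genes), with 2 core and 3 regulatory genes. Counting a peak only for the nearest start left 1 proteasome gene, Rpn3 (2.08%, beside 9.66% of all genes), with 0 core and 1 regulatory gene. Peaks at or above the median signal gave 1154 genes in all. In the conservative list 2 of 3 summit windows held TATAAA, 1 of 3 as reported. Both were at Rpn5, which has a further row in that list, while Prosbeta2 has no row there. The other settings moved these counts by at most 1.5 times. Counts of 3 or fewer genes limit any comparison of classes, and depth is unknown.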
